A study of Caenorhabditis elegans with 8 samples.

Results

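The RNA recovered with OMA-1 was set directly against the RNA recovered with LIN-41, gene by gene, in ribonucleoprotein immunoprecipitates (IPs) from Caenorhabditis elegans. Every gene with a baseMean of at least 100 was compared, where baseMean is the mean scaled read count over all libraries that the authors deposited for each gene. This limit was met by 6768 of 16031 genes, 42.2% of the table. The limit used reads of both IPs and the lysates together, and not the difference between the IPs. Just outside it lay T23B5.4, with a baseMean of 99.6 and a log2 ratio of OMA-1 over LIN-41 of -0.22, and Y75B8A.3, at 99.8 and -1.02. Just inside it lay Y97E10C.1, at 100.1 and 0.50, and C29F7.3, at 100.3 and -1.03.

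OMA-1 is a CCCH zinc-finger protein and LIN-41 is a TRIM-NHL protein. Both bind mRNA in growing oocytes and repress the translation of many of their targets until the oocyte matures. OMA-1 acts with its close paralog OMA-2 to promote meiotic maturation, while LIN-41 holds oocytes back from entering M phase early. In somatic tissues of larvae LIN-41 represses a small set of developmental transcription regulators, and a set of maternal mRNAs is known to be held silent by the OMA proteins until the embryo forms.

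The study made 8 RNA-seq libraries: 2 OMA-1 IPs, 2 LIN-41 IPs, and from each strain 1 lysate depleted of ribosomal RNA and 1 lysate left undepleted. All the animals were young adult females, because all carried fog-1(q253ts), a temperature-sensitive allele that feminises the germ line. Stocks were kept at 15 °C and larvae were grown at 25 °C, about 48 h on food at 30000 larvae per dish. The IPs are labelled as having had no RNA enrichment step. In the OMA-1 strain, oma-1(zu405te33) animals carried the transgene tnIs17, which expresses OMA-1 with an S, TEV and GFP tag from the oma-1 promoter together with an unc-119(+) rescue gene. In the LIN-41 strain, the allele lin-41(tn1541) placed GFP, TEV and S tags on LIN-41 at its own locus. Both proteins were pulled down with the GFP monoclonal antibodies 12A6 and 4C9. OMA-1 was thus expressed from a transgene and LIN-41 from its own gene, and the OMA-1 strain carried an oma-1 mutation that the LIN-41 strain did not.

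The values used were the authors' pooled FPKM, a read level per transcript length and library size, 1 value per gene for each IP and 1 for the depleted lysates of both strains together. Single libraries could not be examined, so no value carries an SD, no difference between the IPs has a replicate check, and no test was run. The depth per library is unknown. The 3 columns were scaled to one median over the genes compared, and ratios were taken after adding 1 FPKM. Since the lysates of the strains were pooled, a difference in binding and a difference in mRNA level between the strains cannot be told apart. No IP from untagged animals is among the labelled libraries, so carry-over common to both IPs was not measured. Oocyte markers were present in all columns: the 7 markers summed to 3473 scaled FPKM in the lysates, 10331 in the OMA-1 IPs and 14344 in the LIN-41 IPs. The 3 sperm markers listed in the table summed to 0.668, 0.661 and 0.470 in the same order, and none reached the baseMean limit.

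Most RNAs differed little between the IPs, and the differences that were large lay more often on the OMA-1 side. The quartiles of the log2 ratio of OMA-1 over LIN-41 were -0.68 and 0.82, around a median of -0.09. The 5th and 95th percentiles were -1.68 and 2.38. With OMA-1, 563 genes were at least 4-fold higher, 8.32% of the genes compared, and with LIN-41, 225 genes or 3.32%. At 2-fold the numbers were 1474 genes (21.8%) and 978 genes (14.5%). At 8-fold they were 125 (1.85%) and 64 (0.946%). At 16-fold the order turned, with 9 genes (0.133%) on the OMA-1 side and 13 (0.192%) on the LIN-41 side. The split at 4-fold depended on scaling: 71.4% of the genes past 4-fold were on the OMA-1 side with equal medians, 57.9% with equal totals (409 and 298 genes), 56.1% with quantile normalization (361 and 283) and 76.6% with the columns as deposited (669 and 204). Equal totals shifted every log2 ratio by about -0.26 and the deposited columns by 0.14. With equal totals, some genes described here as past 4-fold on the OMA-1 side were thus under it: mom-2, sygl-1, zhp-3, dsb-1, stt-3, crt-1, ceh-40, gld-4, ergo-1, puf-6, gla-3, mrpl-36, eef-2, vit-4 and ife-1. Past 4-fold under all 5 scalings were 317 of the 563 OMA-1 genes and 201 of the 225 LIN-41 genes.

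**Figure D1:**
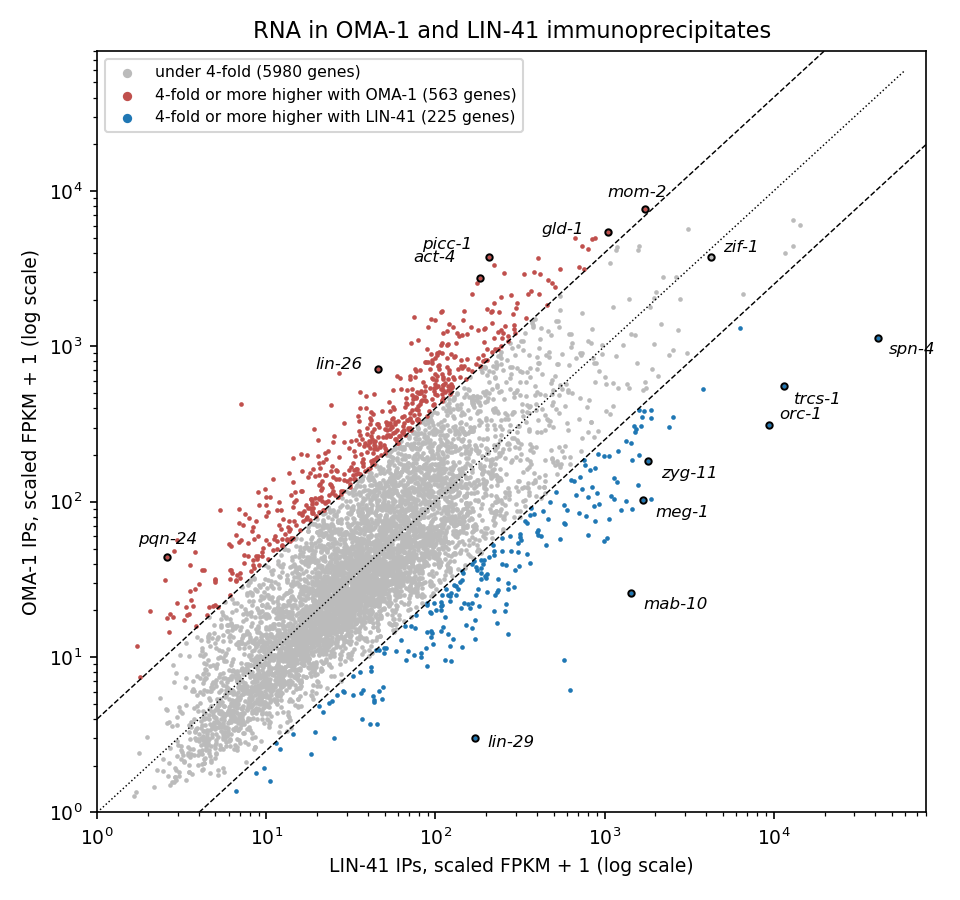
Scaled FPKM plus 1 in the LIN-41 IPs (x axis, log scale) and the OMA-1 IPs (y axis, log scale) for the 6768 genes compared, 1 point per gene. The dotted line marks equal values and the dashed lines 4-fold differences; 563 genes lie above the upper dashed line and 225 below the lower, with spn-4 far to the right at 41453 scaled FPKM.

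Among the named genes furthest to the LIN-41 side were the somatic targets lin-29 and mab-10. For lin-29, a zinc-finger transcription factor of the larval-to-adult switch, the scaled FPKM was 1.58 in the lysates, 2.002 in the OMA-1 IPs and 169 in the LIN-41 IPs. For mab-10, which encodes a cofactor of LIN-29, it was 4.50, 25.0 and 1424. The DM-domain gene mab-3, a regulator of male development and the third such target, stood at 0.396, 4.41 and 47.2, less far to the same side. All 3 were nearly silent in the lysates and were higher with LIN-41 by 56.7-fold, 54.9-fold and 8.90-fold. All 3 were below 5 scaled FPKM in the lysates and reached the baseMean limit through reads of the IPs, so a lysate minimum of 5 would leave them out. The other known somatic target on the list, dmd-3, did not reach the baseMean limit. These genes lie on chromosome II at 11917642-11935343 (lin-29), 10528084-10534380 (mab-10) and 9732137-9738035 (mab-3) in WBcel235, the build named in the submitters' processing notes, with positions from Ensembl release 115.

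Maternal mRNAs followed at much higher levels. The mRNA of spn-4, an RNA-binding protein needed in the early embryo, stood at 716 scaled FPKM in the lysates, 1136 in the OMA-1 IPs and 41453 in the LIN-41 IPs, 36.5-fold higher with LIN-41. This single gene made up 5.77% of all scaled FPKM in the LIN-41 IPs, against 0.132% in the OMA-1 IPs and 0.154% in the lysates. For orc-1, a subunit of the origin recognition complex, the values were 124, 309 and 9421, and for trcs-1, known for a role in yolk uptake, 418, 558 and 11448. These 3 genes lie at V:6783187-6784903 (spn-4), III:10643129-10646058 (orc-1) and IV:9587096-9588834 (trcs-1). In the OMA-1 IPs, each was between 1 and 3 times its lysate level.

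Further named genes more than 13-fold higher with LIN-41 included some with roles in chromatin, chromosome segregation or protein turnover. For mis-12, a kinetochore subunit, the lysates held 49.95 scaled FPKM, against 103.7 in the OMA-1 IPs and 1872 in the LIN-41 IPs. The CpG-binding subunit gene of the COMPASS histone methyltransferase, cfp-1, had 66.5, 54.5 and 988, and the histone acetyltransferase gene hat-1 had 122, 87.5 and 1257. At equal medians both thus lay below their lysate level with OMA-1. As deposited, the lysates and OMA-1 IPs held 53.8 and 62.67 FPKM of cfp-1, and 98.39 and 100.57 of hat-1, so this depended on scaling. The deubiquitinase gene atx-3, an ataxin-3 ortholog, had 54.4, 57.7 and 1039, the arrestin gene arr-1 had 11.6, 13.03 and 266, and tag-52 had 18.5, 15.7 and 229. Several of these overlap another coding gene in the annotation (lin-29, mab-10, spn-4, mis-12 and hat-1 on the other strand, cfp-1 with F52B11.2 and tag-52 with ceh-63 on the same strand). The strand setting of the counting is not given in the sources used here, so reads of the overlapping parts cannot be told apart.

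The MEG germ plasm genes were on the LIN-41 side as a family. All 4 MEG genes, which encode disordered proteins of the embryonic P granules, were at least 2-fold higher with LIN-41 (background 14.5%) and 3 were past 4-fold (background 3.32%). The values in lysates, OMA-1 IPs and LIN-41 IPs were 109, 101 and 1677 for meg-1, and 16.8, 17.2 and 114 for meg-2. For meg-3 they were 45.5, 29.3 and 139, and for meg-4, the one under 4-fold, 27.1, 11.06 and 30.2. At equal medians the OMA-1 IPs held none of the 4 above its lysate level by more than a few percent. The authors' deposited log2 ratios of OMA-1 over the lysates were 0.40 for meg-1 and 0.53 for meg-2. They were -0.13 for meg-3 and -0.79 for meg-4. Of the 3 Nanos genes, translational regulators of the germ line, nos-1 was past 4-fold (65.8, 384 and 1711). The mRNA of nos-2 was high in both IPs (96.0, 886 and 2412), and nos-3 was near equal (72.5, 62.6 and 57.2). MEG and Nanos lists had median log2 ratios of -2.43 and -1.44, beside -0.09 over all genes compared. A list of 15 P granule genes did not share this lean. Its median was 0.18, which turned to -0.07 with equal totals. There, 2 genes were past 4-fold with OMA-1 (background 8.32%), gld-1 and ife-1, and none with LIN-41. At 2-fold, 3 were higher with OMA-1 (background 21.8%) and 3 with LIN-41.

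Regulators of M phase and of the meiotic spindle leaned to LIN-41 by moderate amounts. Of 15 cyclins, kinases and phosphatases of M phase compared, 10 were at least 2-fold higher with LIN-41 (background 14.5%) while 1 was so with OMA-1 (background 21.8%), and the median was -1.26. The cyclin B gene cyb-3 stood at 592 scaled FPKM in the lysates, 912 in the OMA-1 IPs and 3090 in the LIN-41 IPs, and cdk-1, the partner kinase of cyclin B, at 137, 45.8 and 130. The exception was plk-3, a Polo-like kinase gene, at 197, 2666 and 463, which put it past 4-fold on the OMA-1 side, though not with quantile normalization. For cdc-25.3, a phosphatase gene known to be repressed by both proteins, both IPs stood far above the lysates (51.3, 1268 and 2704). Of 16 meiotic spindle genes, 9 were at least 2-fold higher with LIN-41 (background 14.5%) and 0 were so with OMA-1 (background 21.8%), among them aspm-1, which acts at spindle poles, past 4-fold (49.7, 30.3 and 143). The katanin subunit genes mei-1 (97.3, 34.1 and 121) and mei-2 (187, 86.8 and 314) were below the lysates with OMA-1. The kinase gene mbk-2, which marks MEI-1 and other proteins for removal after meiosis, had 129, 246 and 1346. Among 15 origin licensing genes, orc-1 and orc-4 (42.9, 23.8 and 121) were past 4-fold, and the list median was -0.72.

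Members of several further groups were past 4-fold on the LIN-41 side. The substrate adaptor gene zyg-11 of the CUL-2 ubiquitin ligase stood at 228, 182 and 1809 scaled FPKM in the lysates, OMA-1 IPs and LIN-41 IPs. The Argonaute gene ppw-2 had 108, 74.2 and 876, the DREAM complex gene lin-54 had 55.3, 30.8 and 232, and the nuclear hormone receptor gene nhr-71 had 14.9, 18.7 and 221. The amine oxidase gene amx-1, related to lsd-1, had 9.62, 21.1 and 155. The splicing factor gene rsp-8 had 29.8, 59.6 and 404, and the engulfment receptor gene ced-1 had 35.7, 30.9 and 185. In each of these the OMA-1 value lay much nearer to the lysates than the LIN-41 value, which was well above them. The methyltransferase gene met-2, from the same list as lin-54, was just past 4-fold, with smaller distances from the lysates (48.6, 21.3 and 88.6).

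The OMA-1 side was broader and no single RNA dominated it. Its most abundant RNA, mom-2, made up 0.886% of the OMA-1 column. The 563 genes together held 35.7% of the scaled FPKM of the OMA-1 IPs, 6.76% of the LIN-41 IPs and 6.22% of the lysates. The 225 LIN-41 genes held 23.1% of the LIN-41 column, 2.01% of the OMA-1 column and 3.12% of the lysates. The 10 most abundant genes made up 18.3% of the LIN-41 column and 6.52% of the OMA-1 column. These shares use the values that chose the genes and are a description only.

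The named genes furthest to the OMA-1 side included genes of cytoskeletal, epithelial and transcription proteins, and of several secreted or lysosomal ones. The coiled-coil gene picc-1 (V:6018994-6026338) stood at 98.9 scaled FPKM in the lysates, 3737 in the OMA-1 IPs and 205 in the LIN-41 IPs, 18.1-fold higher with OMA-1. For act-4 (X:4960621-4964413), an actin gene, the values were 299, 2743 and 181. Actin genes are nearly identical, so its reads may be split among copies, and act-4 is also expressed in body muscle. The zinc-finger gene lin-26 (II:7682198-7684764), known for epidermal fate, had 63.4, 718 and 44.6, and its neighbour lir-1 (II:7672005-7682363) had 69.2, 1483 and 98.4. Both lie on one strand and overlap, so their reads cannot be fully told apart and they may not count as separate genes here.

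Other named genes of the OMA-1 side had high levels in the OMA-1 IPs and far lower levels in the LIN-41 IPs. For tsp-12, a tetraspanin gene, the values were 58.1, 2171 and 164 in lysates, OMA-1 IPs and LIN-41 IPs. For egrh-3, an EGR-type zinc-finger gene, they were 73.4, 1097 and 78.1, and for coq-6, an enzyme gene of ubiquinone synthesis, 25.9, 506 and 34.7. The low-level genes pqn-24 (3.78, 43.2 and 1.603) and clc-3, a claudin-like gene (2.003, 46.4 and 2.77), showed the same order. In 3 more, the ratio came partly from the LIN-41 side: the metallothionein gene mtl-1 (35.6, 87.6 and 4.29), the aspartyl protease gene asp-10 (88.4, 415 and 23.2) and the saposin-like gene spp-2 (23.0, 140 and 9.92) were all more than 2-fold below the lysates with LIN-41. The cuticle collagen gene dpy-10 was nearly silent in the lysates and high with OMA-1 (4.33, 319 and 27.6). It was the only 1 compared from a list of 6 collagen genes. Like the somatic LIN-41 targets, dpy-10, pqn-24 and clc-3 were below 5 scaled FPKM in the lysates and reached the baseMean limit through reads of the IPs. The same held for ref-1, moe-3 and linc-7, described below.

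Known maternal targets were found on both sides. Among 18 mRNAs reported as targets of one protein or the other, 6 were past 4-fold on the LIN-41 side (background 3.32%) and 2 on the OMA-1 side (background 8.32%). The other 10 were on neither side, and the median of the 18 was -1.26. The OMA-1 pair were rnp-1, an RNA-binding protein gene (51.3, 2266 and 366), and mom-2, which encodes a Wnt ligand of the early embryo (174, 7620 and 1725). The log2 ratio of mom-2 was 2.14, and 1.88 with equal totals, which is under 4-fold. The LIN-41 side held spn-4, orc-1, trcs-1, meg-1, meg-2 and lin-41 itself (122, 303 and 2413). Of the rest, glp-1 (128, 733 and 196) and puf-5 (491, 3444 and 1078) were higher with OMA-1, and neg-1 (69.0, 713 and 1907) and nos-2 with LIN-41, by less than 4-fold. The yolk receptor gene rme-2 (490, 636 and 1009), fce-2 (14.1, 28.7 and 14.6) and cul-4 (36.6, 12.2 and 27.4) differed less or were low. This list was put together with results of these data known and is not independent evidence of a direction.

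The Notch pathway of the germ line lay toward OMA-1. GLP-1 is the Notch receptor that keeps germline stem cells dividing, LAG-1 is its transcription factor, and lst-1 and sygl-1 are its direct targets there. Of 8 genes compared, 6 were at least 2-fold higher with OMA-1 (background 21.8%), 3 past 4-fold (background 8.32%) and 1 at least 2-fold higher with LIN-41, with a median of 1.80. With equal totals sygl-1 was under 4-fold, at a log2 ratio of 1.95, and ref-1 was at the limit. With quantile normalization lag-1 alone was past it. The lysates, OMA-1 IPs and LIN-41 IPs held 37.6, 434 and 66.3 scaled FPKM of lag-1, and 46.5, 3263 and 704 of sygl-1. They held 74.0, 746 and 227 of lst-1, and 3.20, 137 and 27.8 of ref-1, an embryonic Notch target. The presenilin gene sel-12 (11.8, 105 and 36.3) was on the same side, the ligand gene apx-1 (36.7, 187 and 215) was near equal, and the epsin gene epn-1 (50.2, 45.4 and 130) was higher with LIN-41. In the Wnt pathway only mom-2 and dsh-2, a Dishevelled gene (74.0, 563 and 109), of 12 genes compared were past 4-fold, both with OMA-1 (background 8.32%). The median was -0.15.

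Most oligosaccharyltransferase subunits, which act in protein glycosylation in the endoplasmic reticulum, were also on the OMA-1 side. Of 6 genes on the oligosaccharyltransferase list, 4 were at least 2-fold higher with OMA-1 and none were so with LIN-41, around a median of 1.84. At 2-fold the background was 21.8% on the OMA-1 side. The values were 95.8, 4220 and 793 for dad-1, 118.9, 913 and 216 for stt-3, 166, 1420 and 370 for ribo-1 and 74.6, 1079 and 322 for ostd-1. A further subunit gene, ostb-1, was high in both IPs (118.9, 2024 and 2797). The last gene on that list, hpo-18, whose place among the subunits was not checked, was low in both (200, 32.0 and 40.2). Of 11 heat shock genes, a list that also holds genes of the cytosol and the mitochondria, 6 were at least 2-fold higher with OMA-1 (background 21.8%), among them the endoplasmic reticulum chaperone gene hsp-4 (176, 1700 and 214) and the calreticulin gene crt-1 (487, 1526 and 341), both past 4-fold. A near relative of hsp-4, hsp-3, was low in both IPs (142, 47.7 and 45.3), and enpl-1, another chaperone gene of the endoplasmic reticulum, was lower with OMA-1 (226, 101 and 178). The median of the heat shock list was 0.35 with quantile normalization. The SQV genes of glycosaminoglycan synthesis had a median of 0.83 over 9 genes, which was 0.28 with quantile normalization. Among them sqv-3 was past 4-fold (19.2, 209 and 38.5), though not with quantile normalization.

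Transcripts of the mitochondrial genome were higher with OMA-1, except that ctc-1 was near equal and turned to -0.25 with quantile normalization. Of 8 compared, 7 were at least 2-fold higher with OMA-1 (background 21.8%) and 3 past 4-fold (background 8.32%), with a median of 1.95. With quantile normalization 6 were at least 2-fold higher, ctb-1 alone was past 4-fold, and the median was 1.33. The largest difference was in ctb-1, cytochrome b, at 745 scaled FPKM in the lysates, 4971 in the OMA-1 IPs and 667 in the LIN-41 IPs. For ctc-2, a cytochrome oxidase subunit gene, the values were 396, 4397 and 739, and for ctc-1, another, 856, 901 and 736. The OMA-1 IPs thus ranged from near the lysate level to far above it. Nuclear genes for mitochondrial ribosomal proteins had a median of 0.21 over 61 genes, which turned to -0.04 with equal totals. Of these, mrps-31 (45.1, 246 and 43.1) and mrpl-36 (43.0, 291 and 63.95) were past 4-fold with OMA-1 (background 8.32%).

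Germline and nuclear regulators past 4-fold on the OMA-1 side came from many families. Among 27 genes of the meiotic chromosome axis and recombination, 4 were past 4-fold on the OMA-1 side (background 8.32%) and none on the other (background 3.32%), around a median of 0.45. With equal totals 2 of the 27 were, since zhp-3 and dsb-1 were then at 1.81 and 1.85. They were him-8, the X pairing centre protein (29.8, 347 and 40.1), cosa-1 and zhp-3, which mark crossovers (26.6, 321 and 52.8; 30.9, 297 and 70.2), and dsb-1, needed for double-strand breaks (55.4, 419 and 96.1). Of 21 homeobox genes, 10 were at least 2-fold higher with OMA-1 (background 21.8%) and 1 was so with LIN-41 (background 14.5%). Past 4-fold with OMA-1 (background 8.32%) were the CUT-type genes ceh-38 (50.3, 709 and 92.3) and ceh-39 (22.6, 661 and 98.9) and also ceh-40 (7.92, 83.5 and 17.9). The translational repressor gene gld-1 had 374, 5486 and 1048, and the cytoplasmic poly(A) polymerase gene gld-4 had 146, 819 and 194. Argonaute genes went both ways, with wago-1 (318, 4948 and 838), alg-2 (23.5, 178 and 31.8) and ergo-1 (113, 508 and 112) past 4-fold with OMA-1 and ppw-2 with LIN-41. The adaptor gene sem-5 of Ras signalling had 32.7, 899 and 102, and the linker histone gene hil-5 had 337, 5427 and 1057.

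Related genes did not always share a side. In the PUF family of RNA-binding proteins, puf-6 was past 4-fold with OMA-1 (48.2, 442 and 108) and puf-5 was higher with it too, while puf-11 (212, 941 and 2526) and puf-3 (246, 535 and 1208) were at least 2-fold higher with LIN-41. Reads of puf-6 and its near copy puf-7 (32.5, 164 and 73.5) may be split between them. Among genes of CCCH and other RNA-binding proteins of the germ line and early embryo, moe-3 (2.52, 33.6 and 6.02) and gla-3 (58.3, 635 and 138) were past 4-fold with OMA-1, and pie-1 (83.1, 109 and 391) and pos-1 (750, 4007 and 11623) were on the LIN-41 side. Of 35 splicing genes compared, 5 were past 4-fold with OMA-1 (background 8.32%), such as snr-5 (114, 1396 and 120) and rsp-2 (168, 2554 and 487). With LIN-41, 1 was so (background 3.32%), and the median of -0.01 was 0.13 with the columns as deposited. The OMA-1 count of splicing genes was 2 with equal totals and 1 with quantile normalization. Of 11 CUL-2 ligase genes, zer-1 (64.8, 948 and 329) and fem-1 (35.03, 47.8 and 17.7) were at least 2-fold higher with OMA-1 (background 21.8%). With LIN-41, zyg-11 and cul-2 (81.8, 20.7 and 43.9) were so (background 14.5%), and zif-1 and fem-3 were near equal.

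**Figure D2:**
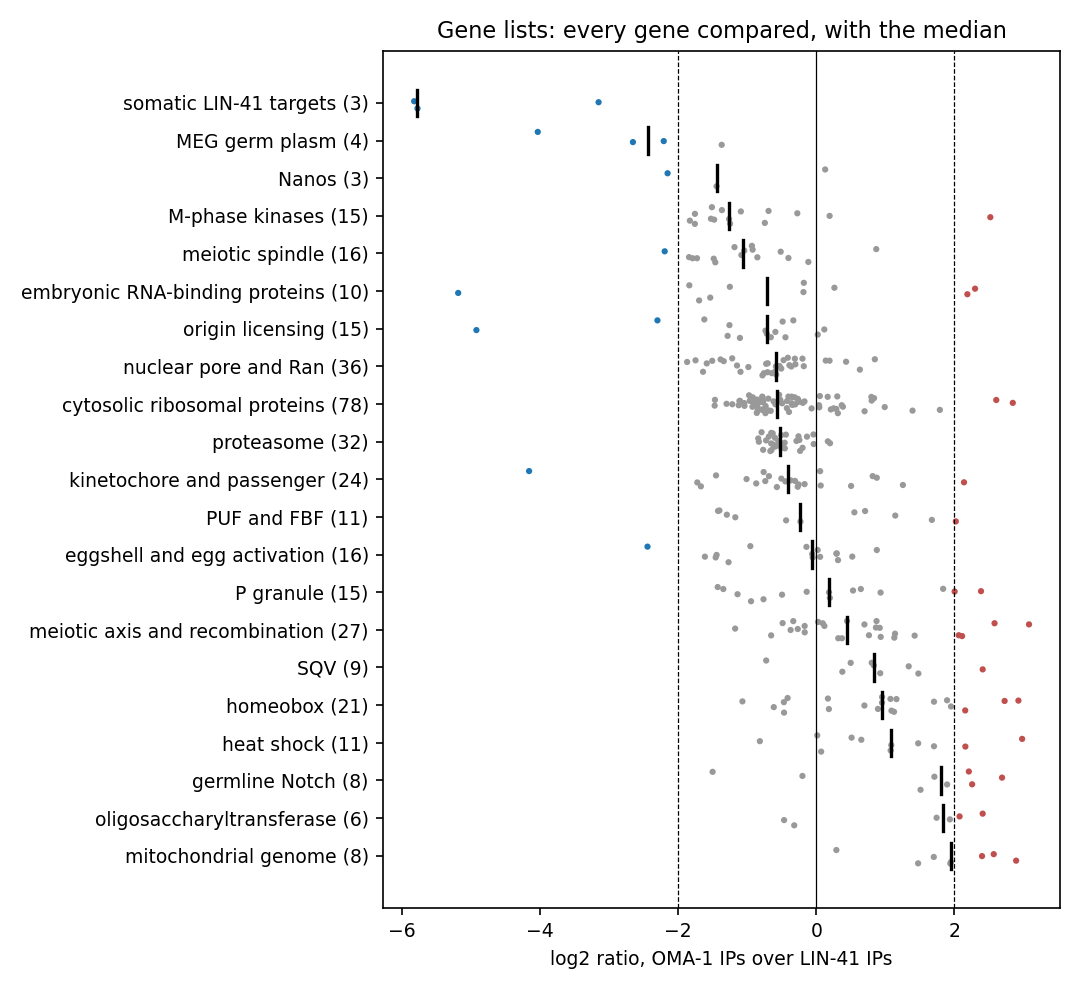
Log2 ratio of OMA-1 IPs over LIN-41 IPs for every gene compared of 21 gene lists, 1 point per gene, with the list median as a black bar and the number of genes in brackets; red and blue points are past 4-fold (dashed lines). Medians run from -5.78 for somatic LIN-41 targets to 1.95 for the mitochondrial genome, and most lists hold genes on both sides of 0.

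Many RNAs were recovered alike, and some of these were among those most enriched in both IPs. In 1518 genes, 22.4% of those compared, the higher IP was at most 25% above the other. Of these, 68 were at least 4-fold above the lysates in both IPs and 70 at least 4-fold below, all measured against the same lysates. Over all 6768 genes compared, 330 were at least 4-fold above the lysates in both IPs. The mRNA of zif-1, the substrate adaptor that clears germline proteins from somatic cells of the embryo, stood at 140 scaled FPKM in the lysates, 3781 in the OMA-1 IPs and 4232 in the LIN-41 IPs. That of lsd-1, a histone demethylase, was at 16.9, 519 and 497, and that of pup-3, a poly(U) polymerase, at 6.66, 174 and 181. The others chosen by the same rule were impt-1 (36.6, 1205 and 1436), F08F3.6 (89.0, 2786 and 2644) and H25P19.1 (17.7, 510 and 604). The sex-determination gene fem-3 (48.1, 575 and 592) was also equal, and was picked after its values were seen. Their equality held for equal medians: with quantile normalization the log2 ratio was -0.64 for lsd-1, -0.62 for pup-3 and -0.71 for fem-3.

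The tagged genes themselves differed as follows. Each IP held more of the mRNA of its own protein: oma-1 stood at 166 scaled FPKM in the lysates, 969 in the OMA-1 IPs and 408 in the LIN-41 IPs, and lin-41 at 122, 303 and 2413. The OMA-1 strain carried an oma-1 transgene beside its mutant oma-1 locus, and the LIN-41 strain carried the locus without that mutation. The source of the oma-1 mRNA, its level in each strain and its recovery thus cannot be told apart. The paralog oma-2, untagged in both strains, was equal at 269, 2036 and 1960, with a log2 ratio of 0.05 that turned to -0.45 with quantile normalization. With equal medians, most genes of the proteasome and the ribosome were near each other in the IPs. None of the 32 proteasome genes was then 2-fold higher in either IP, with a median of -0.53 and a range from -0.84 to 0.20. With equal totals 4 of them were at least 2-fold higher with LIN-41. Of 78 cytosolic ribosomal protein genes, 4 were at least 2-fold higher with OMA-1 (background 21.8%) and 9 with LIN-41 (background 14.5%), around a median of -0.57. The LIN-41 count depended on scaling, and was 31 with equal totals and 20 with quantile normalization. Past 4-fold with OMA-1 (background 8.32%) were rla-2 (206, 742 and 102) and rps-17 (687, 498 and 80.8), and rps-29 (401, 787 and 227), like rla-2, lay above the lysates with OMA-1.

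The lysates served to tell genes that were high in one IP from genes that were low in the other. Over all 6768 genes compared, 2091 were at least 2-fold above the lysates in the OMA-1 IPs, 1581 in the LIN-41 IPs and 1093 in both. On the OMA-1 side, 540 of the 563 genes (95.9%) were at least 2-fold above the lysates in the OMA-1 IPs, and 36 (6.39%) were at least 2-fold below them in the LIN-41 IPs. The median gene was at a log2 ratio over the lysates of 3.32 in the OMA-1 IPs, while its LIN-41 value was 0.64. In 204 of these genes the LIN-41 IPs too were at least 2-fold above the lysates, and in 323 they lay within 2-fold of them. On the LIN-41 side, 205 of the 225 genes (91.1%) were above the lysates in the LIN-41 IPs, 38 (16.9%) were below them in the OMA-1 IPs, and the medians were 2.67 and -0.14. In 44 of these genes the OMA-1 IPs too were at least 2-fold above, and in 143 they lay within 2-fold. The counts of genes below the lysates moved with the scaling: with equal totals, 152 of the 298 genes then on the LIN-41 side were at least 2-fold below the lysates in the OMA-1 IPs. Equal totals changed the genes of that side as well as the levels.

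**Figure D3:**
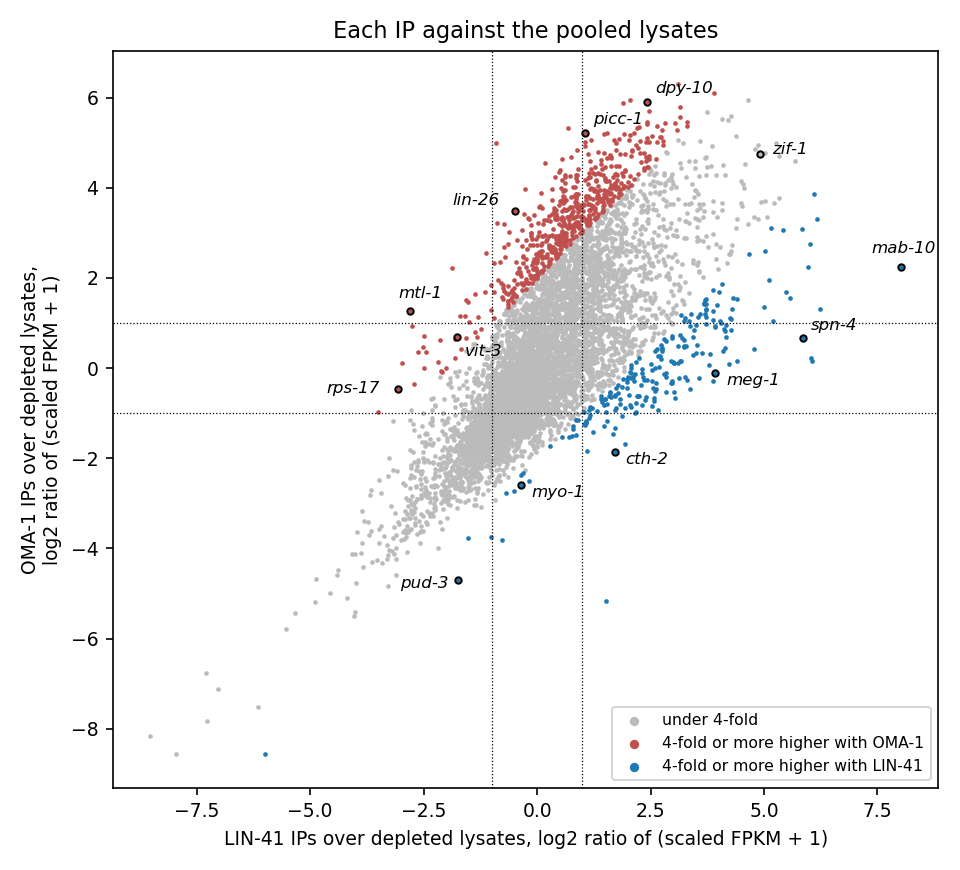
Log2 ratio over the pooled depleted lysates of the LIN-41 IPs (x axis) and the OMA-1 IPs (y axis), 1 point per gene, with dotted lines at 2-fold above and below. Of the genes past 4-fold between the IPs, 540 of 563 red points lie above the upper horizontal line and 205 of 225 blue points to the right of the right vertical line; both axes share the same lysates.

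In a small set of genes, one IP was lower than the lysates while the other was near them. On the OMA-1 side 23 genes (4.09%) had OMA-1 values within 2-fold of the lysates and LIN-41 values at least 2-fold below. Among them were the yolk protein genes vit-3 (184 scaled FPKM in the lysates, 295 in the OMA-1 IPs and 53.1 in the LIN-41 IPs) and vit-4 (186, 175 and 42.5), which are near copies of one another and are made in the intestine. Others were the ribosomal protein gene rps-17, the elongation factor gene eef-2 (1077, 1079 and 266) and the lipid-binding protein gene far-2 (677, 675 and 118.6). On the LIN-41 side 16 genes (7.11%) had LIN-41 values within 2-fold of the lysates and OMA-1 values at least 2-fold below. The pharyngeal myosin genes myo-1 (14.4, 1.57 and 11.05) and myo-2 (13.1, 1.79 and 10.4) were among these, as were the collagen gene col-124 (954, 184 and 751) and pud-4 (41.4, 2.02 and 23.96). In 4 more, pud-3, sodh-1, F59C6.15 and dod-24, both IPs were at least 2-fold below the lysates, as in pud-3 (60.4, 1.37 and 17.3 scaled FPKM).

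Genes of somatic tissues varied between the IPs beside these. The 7 muscle markers summed to 1081 scaled FPKM in the lysates, 415 in the OMA-1 IPs and 235 in the LIN-41 IPs, with none past 4-fold. The 5 intestine markers summed to 601, 80.04 and 153, with none past 4-fold among the 3 compared. The 3 pharynx markers summed to 29.4, 4.33 and 22.8, with myo-1 and myo-2 past 4-fold. The 5 hypodermis markers summed to 966, 889 and 408, with lin-26 past 4-fold, and the 3 gonadal sheath markers to 27.2, 5.68 and 6.27. The 6 neuron markers summed to 116, 79.5 and 127. Single genes carried some of these sums. In the hypodermis, lin-26 held 718 scaled FPKM in the OMA-1 IPs and 44.6 in the LIN-41 IPs, and col-19 went the other way, at 167 and 358. In the neurons, snb-1 held 67.9 and 111. Other neuronal genes were higher with OMA-1, namely unc-64 (12.8, 43.7 and 15.5 in lysates, OMA-1 IPs and LIN-41 IPs) and unc-119 (21.9, 58.4 and 17.7), the latter also carried by the OMA-1 transgene. In a wider list of 6 neuron genes compared, egl-21 (12.3, 1.96 and 5.12) leaned to LIN-41 by at least 2-fold. The median log2 ratio of that list was -0.63. The intestinal gene spp-1 (40.1, 17.2 and 3.56) leaned to OMA-1, alone by 2-fold or more in a wider list of 9 compared. Opposite to it by at least 2-fold were act-5 (86.3, 12.5 and 30.2), ifb-2 (33.4, 4.86 and 11.2) and cpr-1 (33.9, 3.03 and 7.35). The median log2 ratio of the intestine list was -0.68. The part of somatic RNA in the differences between the IPs was not tested.

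The largest ratios of all were in genes without a public name or with little annotation. F21C10.11 (V:9123486-9123852), a protein-coding gene that overlaps F21C10.13 on the other strand, had 12.4 scaled FPKM in the lysates, 427 in the OMA-1 IPs and 6.13 in the LIN-41 IPs, a log2 ratio of 5.91. The non-coding RNA C38C6.8 (II:14635795-14636093) had 217, 5.12 and 620, a log2 ratio of -6.67, and was thus far below the lysates with OMA-1. T08D2.7 (X:182691-191193) had 7.65, 8.61 and 574. By biotype, 552 of the 563 genes and 220 of the 225 were protein-coding, with 8 and 2 pseudogenes.

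The most abundant RNAs of the IPs overlapped in part. In the OMA-1 IPs they were mom-2, an rRNA pseudogene (6482 scaled FPKM, against 13074 in the LIN-41 IPs and 6403 in the lysates), the C-type lectin gene clec-87 (6031), the eggshell chondroitin proteoglycan gene cpg-1 (5685) and gld-1. In the LIN-41 IPs they were spn-4, clec-87 (14354), the same rRNA pseudogene, F14H3.6 (13046) and pos-1. Among 16 eggshell genes, cpg-2 (1559, 2159 and 6611) was higher with LIN-41 and cpg-1 (1349, 5685 and 3095) with OMA-1, by less than 4-fold. The list median of -0.06 turned to 0.08 with the columns as deposited.

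The sides also differed in some annotated properties that the comparison did not use. Protein-coding genes of the OMA-1 side had a median annotated 3' UTR of 164 nt (quartiles 92 and 286, 511 genes), those of the LIN-41 side 219 nt (152.5 and 385, 210 genes) and those under 4-fold 185 nt (110 and 331, 5563 genes). A 3' UTR under 100 nt was annotated for 28.8%, 7.62% and 20.6% of them. The median coding length was 1140 nt, 1323 nt and 1317 nt in the same order, and the median number of exons was 6 in each. On the X chromosome lay 61 of 559 OMA-1 genes (10.9%), 35 of 224 LIN-41 genes (15.6%) and 10.3% of all genes compared. Where a gene of the OMA-1 side had a same-strand neighbour within 1 kb, that neighbour was on the OMA-1 side too in 27 of 199 cases (13.6%, beside 7.98% of all such neighbours), and on the LIN-41 side in 9 of 93 cases (9.68%, beside 3.66%). The side of a neighbour comes from the comparison itself. Neighbours that overlap and may share reads were included, and genes that are each other's neighbour were counted from both. These are descriptions with no test.

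In the authors' deposited table, a contrast of spermatogenic with oogenic gonads from another study gave medians of -0.49 on the OMA-1 side, -0.80 on the LIN-41 side and -0.23 for genes under 4-fold, where negative values are higher in oogenic gonads. By the same contrast, 33.5% of the OMA-1 genes, 45.5% of the LIN-41 genes and 22.5% of the genes under 4-fold were higher in oogenic gonads. A gene counted here if it was at least 2-fold higher in oogenic gonads at a deposited adjusted p below 0.05 in the authors' deposited table. An earlier experiment's OMA-1 IP, which the authors' deposited table sets over the same lysates, had a median log2 ratio of 4.14 on the OMA-1 side, 0.46 on the LIN-41 side and 0.36 for genes under 4-fold. That IP took no part in choosing the genes. The medians of the present OMA-1 IPs in the authors' deposited table were 3.89, 0.36 and 0.26, and those of the LIN-41 IPs 1.05, 3.11 and 0.24. The authors' deposited table called 52.1% of the genes compared enriched in the OMA-1 IPs, and 49.6% in those of LIN-41. Of the 563 genes of the OMA-1 side, the authors' deposited table called 98.9% enriched in the OMA-1 IPs, and 75.8% in those of LIN-41. Of the 225 genes of the LIN-41 side, the authors' deposited table called 95.1% enriched in the LIN-41 IPs, and 52.9% in those of OMA-1. These calls share the same lysates and come from the IPs that chose the sides, so they are a description only.

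**Figure D4:**
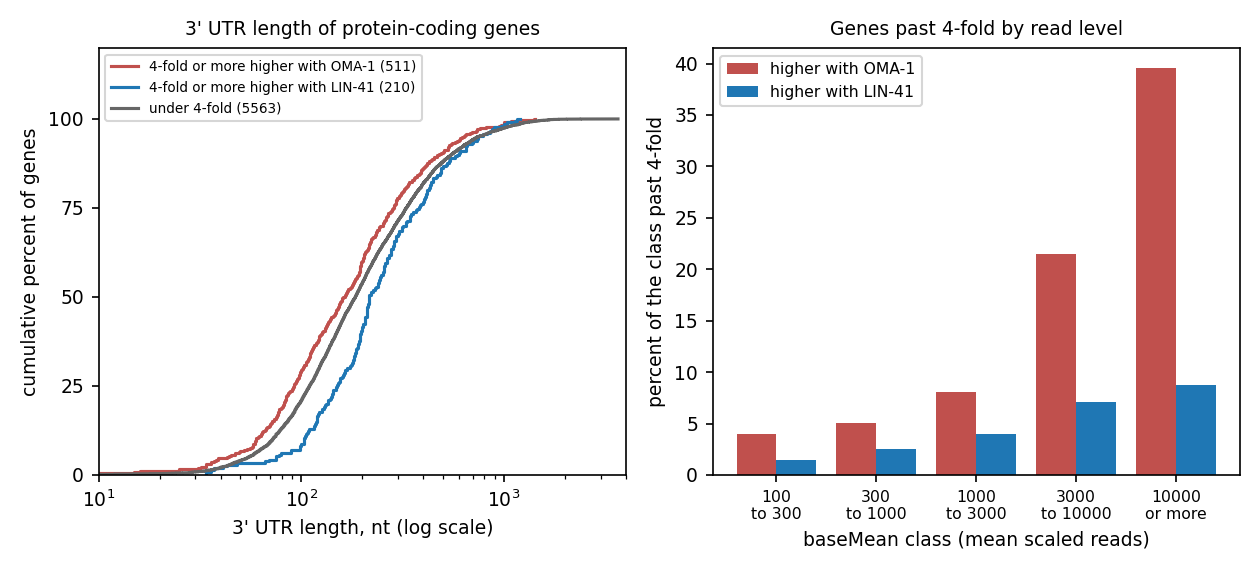
Left, cumulative percent of protein-coding genes by annotated 3' UTR length in nt (log scale) for genes 4-fold higher with OMA-1 (511), with LIN-41 (210) and under 4-fold (5563), where the LIN-41 curve lies to the right with a median of 219 nt. Right, percent of genes past 4-fold in each direction by class of baseMean, rising to 39.6% for OMA-1 and 8.79% for LIN-41 in the 182 genes of the highest class.

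Genes with more reads were more often past 4-fold. In the class with a baseMean of 100 to 300, 3.96% of 1668 genes were higher by 4-fold with OMA-1 and 1.499% by 4-fold with LIN-41, and at 10000 or more 39.6% and 8.79% of 182 genes. baseMean counts the reads of the IPs too, so the class is not independent of the comparison. An approximate error of each difference was had from the authors' deposited adjusted p-values, as the root of the summed squares of the errors they imply. It counts the spread of the shared lysates and is too wide in that respect, but how well it fits this ratio was not tested. It could not be had where a deposited adjusted p was 0, was tied with another, or implied a p of 0.2 or more. Some of the most enriched genes, such as spn-4 and orc-1, thus have none. The median of that error fell from 0.342 on the log2 scale in the lowest class to 0.148 in the highest. It could be had for 293 of the 563 OMA-1 genes (median 0.203) and 80 of the 225 LIN-41 genes (median 0.175). In 138 and 50 of them the difference was more than 2 errors beyond 4-fold. Whether a gene near the limit is on one side of 4-fold or the other is thus uncertain for many.

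**Figure D5:**
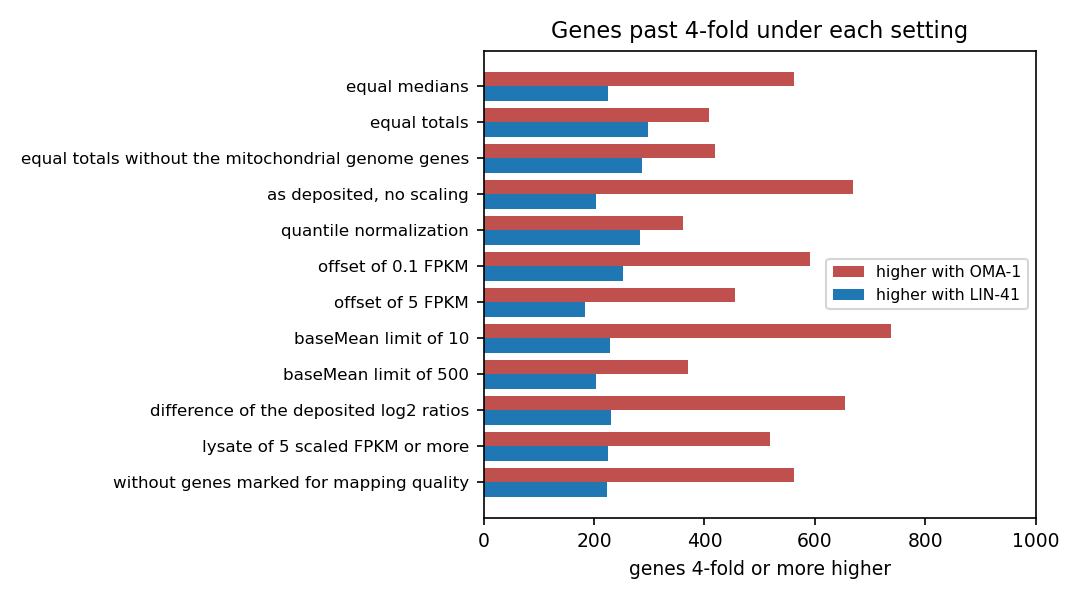
Number of genes at least 4-fold higher with OMA-1 (red) and with LIN-41 (blue) under each setting, by scaling, offset, baseMean limit and measure. The OMA-1 count runs from 361 to 737 and the LIN-41 count from 184 to 298, and the OMA-1 count is the larger in each setting shown.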

How the data were processed

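RNA-seq values of 8 libraries were taken from one deposited table of pooled values, and values of single libraries were not used here. Per the file headers, the authors deposited FPKM pooled over the IPs of each protein and over the depleted lysates of both strains, log2 ratios of each IP to those lysates, Benjamini-Hochberg adjusted p-values for enrichment, and baseMean, a mean read signal over all samples. Tools listed in the submitters' processing notes, without their use, are Trimmomatic 0.32, STAR 2.4.2a, SAMtools 1.0 and DESeq2 1.12.3, along with WBcel235; how reads were counted, with which annotation and strand setting, is not given in the sources used here. Before ratios were taken, the 3 FPKM columns had medians of 28.3 (lysates), 40.3 (OMA-1 IPs) and 36.5 (LIN-41 IPs) over the genes compared and were scaled to one median. An offset of 1 FPKM was added, and genes at least 4-fold apart, with a margin of 2-fold against the lysates, were counted with Python 3.11.15 and pandas 2.3.3. With 1 pooled value per group, the design held no test. GC content and trinucleotide density, also in the design, were not computed without a genome sequence.

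Named were the 12 genes furthest to each side with a public name, at least 10 scaled FPKM in the higher IP and a 4-fold difference also under equal totals, the 6 genes most enriched in both IPs among those at most 25% apart, the 5 most abundant in each IP, list members past 4-fold and a few others from the lists. Members and lists were chosen with earlier results of these data known. Gene structures came from Ensembl release 115, where 27 genes compared had no position. The scripts were tested on simulated data. A further 4 value columns were left out. Scaling, offset, baseMean limit, fold limit and the deposited log2 ratios were varied.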

Additional observations from a re-analysis of the deposited data

How the results depend on the processing

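With the main counts of 563 genes on the OMA-1 side and 225 on the LIN-41 side, the OMA-1 count was 361 with quantile normalization and 370 with a baseMean limit of 500, and the counts were 1474 and 978 at 2-fold and 125 and 64 at 8-fold. No named gene past 4-fold changed its direction under any of the settings run on it, but most of these settings could not have turned one. Equal totals moved log2 ratios by about -0.26 and the deposited columns by 0.14, and an offset cannot change the sign of a ratio. With quantile normalization, 338 OMA-1 genes were 2-fold above the lysates with OMA-1. Counts of genes below the lysates moved too. On the OMA-1 side, 36 genes were 2-fold below with LIN-41, against 56 with equal totals without mitochondrial genes, 23 with an offset of 5 FPKM, 61 with a baseMean limit of 10 and 22 with one of 500. On the LIN-41 side, 38 genes were 2-fold below with OMA-1, against 152 of the 298 genes then on that side with equal totals, 146 without mitochondrial genes, 14 as deposited, 78 with quantile normalization, 17 with an offset of 5 FPKM and 67 with a baseMean limit of 500. List medians near 0 turned in sign. With equal totals, then also without mitochondrial genes, they were -0.0389 and -0.0201 for mitochondrial ribosomal proteins, -0.0710 and -0.0521 for P granule genes and -0.21 and -0.19 for the tagged genes and their paralog. Quantile normalization gave -0.0926 for P granule genes and -0.45 for the tagged genes, and a baseMean limit of 500 gave -0.10 for the latter. Splicing and eggshell genes turned to 0.13 and 0.0848 as deposited, 0.0542 and 0.0102 with a baseMean limit of 10, and 0.0803 and 0.0363 with the difference of the deposited log2 ratios. The cause was not tested. Settings chosen after seeing the data, a lysate minimum of 5 scaled FPKM and leaving out genes marked for mapping quality, gave 519 and 225 genes and 562 and 224 genes.

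No paired analysis was possible because the values were pooled over the IPs of each protein, and leaving out replicates was not possible for the same reason. Depth per library is unknown. No value has an interval from replicates, and the errors given above are approximate.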

Other observations

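Gene families not described above also held single RNAs far to one side, given here as values with no test. Many proteins with a BTB domain link substrates to CUL-3 ubiquitin ligases. Of 20 such genes compared, 3 were past 4-fold on the OMA-1 side (background 8.32%) and 2 on the LIN-41 side (background 3.32%). Their median log2 ratio was -0.30. The scaled FPKM in lysates, OMA-1 IPs and LIN-41 IPs was 39.1, 621 and 60.7 for bath-30, and 161, 1068 and 194 for bath-42. For bath-3 the order was the other way, at 6.06, 4.14 and 42.1. Among F-box genes of the FBXA family, fbxa-123 (7.61, 210 and 22.03) and fbxa-170 (7.53, 14.3 and 164) lay on opposite sides. They were 1 of 12 compared with OMA-1 (background 8.32%) and 1 of 12 with LIN-41 (background 3.32%). The lincRNA genes linc-8 (7.69, 77.9 and 6.89) and linc-7 (3.91, 10.03 and 43.4) were also opposite.

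Components of the translation machinery had few RNAs past 4-fold, with counts not far from the shares over all genes compared. None was on the LIN-41 side (background 3.32%). Of 31 translation initiation and elongation genes, 3 were past 4-fold with OMA-1 (background 8.32%). Among them were the initiation factor subunit gene eif-3.C (114, 538 and 96.4) and the cap-binding protein gene ife-1 (106, 358 and 88.4), the latter under 4-fold with equal totals. With quantile normalization none of the 31 was past 4-fold. Of 32 aminoacyl-tRNA synthetase genes, pars-1 alone (93.8, 503.8 and 79.1) was past 4-fold with OMA-1 (background 8.32%). The median log2 ratio was 0.07 and 0.26, which turned to -0.19 and 0.01 with equal totals. Nuclear pore and Ran genes had 10 of 36 at least 2-fold higher with LIN-41 (background 14.5%) and none higher by that much with OMA-1 (background 21.8%). Examples were xpo-1 (142, 46.96 and 174) and ima-1 (102, 62.5 and 212), which were picked after their values were seen. At equal medians the median gene of this list was below the lysates in both IPs, at log2 ratios of -1.05 with OMA-1 and -0.42 with LIN-41. Cuticle collagen genes of the col family, with 30 compared, had 15 at least 2-fold higher with LIN-41 (background 14.5%) against 6 higher with OMA-1 (background 21.8%). In both IPs the median collagen gene was below the lysates. In 33 histone genes the median was -0.07, with 5 at least 2-fold higher with OMA-1 (background 21.8%), hil-5 among them, and 1 with LIN-41 (background 14.5%), the variant gene his-72 (201, 642 and 2058). Several of them, such as hil-3 (8.21, 102 and 45.5) and his-74 (165, 733 and 275), were above the lysates in both IPs.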
